A study of Danio rerio with 2 samples.

Results

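Molecular chaperones and heat shock genes were described in whole zebrafish larvae homozygous for lri25 (spelt lir25 in the library's label) and in their wild-type siblings. The members are the genes whose symbol in the deposited table names a heat shock protein of the HSP90, HSP70 or small HSP families, a DNAJ (HSP40) protein, a CCT subunit, the mitochondrial chaperonin, a BAG protein, or stip1, st13 or unc45. The copies of hspa5, hsp90b1, dnajb9, dnajb11, dnajc3 and dnajc10, which work in the endoplasmic reticulum (ER), were set aside. This gave 97 genes of 33733, of which 4 (DNAJC11 (2 of 2), DNAJC13 (1 of 2), dnajc17 and hspb12) were listed at 0 in both libraries. The other 93 all reached 1 FPKM (fragments scaled by transcript length and sequencing depth) in at least 1 library and entered the comparison. The members were chosen by symbol, so the set is not purely cytosolic: hspd1, hspe1, hspa9 and several DNAJ genes encode mitochondrial proteins, and dnajc1, dnajb12 and dnajb14 encode ER proteins.

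Both groups were larvae of the AB/TL strain at 5 days post fertilisation, and the wild-type larvae came from the same clutches as the mutants. Each genotype was 1 library from 20 pooled whole larvae, so no difference has a replicate check, no test was run, and every value describes these 2 pools. The gene that lri25 affects is not named in the sources used here, so the genotype could not be checked on its transcript. The study asked which transcripts differ between mutants and clutchmates.

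Chaperones bind unfolded or partly folded proteins and help them reach or regain their shape. HSP70 proteins bind and release clients in a cycle driven by ATP, DNAJ proteins deliver the clients and start ATP hydrolysis, and HSP110 and BAG proteins release the nucleotide. HSP90 receives clients such as kinases and steroid receptors from HSP70 through the adaptor stip1, the CCT ring folds actin and tubulin, and small heat shock proteins hold clients until they can be refolded. Constitutive genes of these families are transcribed in unstressed cells, while inducible ones are switched on by heat shock factors when unfolded protein builds up. In fish muscle, Hsp90a and Unc45b fold the myosin motor.

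Across the 93 genes the libraries lay close together. The median difference, log2((mutant FPKM + 1)/(wild-type FPKM + 1)), was 0.08, with quartiles of -0.09 and 0.34, beside -0.01 for all 20256 genes compared. Of the 93, 2 were at least 2-fold higher in the mutant library, where 6.08% of all genes were, and 2 were at least 2-fold lower, where 7.12% of all genes were. The higher genes were hspb1 and HSPB11, and the lower ones were HSPA4L and 1 of 2 entries named dnajb12b. Above 0 on this scale, and so higher in the mutant library, were 59 of the 93, beside 49% of all genes. Of the 59, dnajc24 reached the floor of 1 FPKM only in mutants, so its direction was set by the floor. The median size of the difference, without its sign, was 0.22 for the members and 0.35 for all genes. By the higher value, it was 0.27 against 0.34 at 5 to 20 FPKM, with 40 members. At 20 to 100 FPKM, with 24 members, it was 0.27 against 0.31. At 1 to 5 FPKM, with 18 members, it was 0.18 against 0.42. From 100 FPKM, with 11 members, it was 0.08 against 0.25. Below, a gene followed by a pair of FPKM values has the wild-type value first and the mutant value second, and a difference without another unit is on the log2 scale given here.

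The members nearest the threshold on its outer side were HSPA4L at -1.03, and on its inner side DNAJA4 at 0.93 and bag3 at 0.87. At a lower threshold of 1.5-fold, chosen after the values were seen, 8 members were higher, where 13.8% of all genes were. Lower by as much were 7, where 16% of all genes were. Among the 8 was dnajc24, whose direction was set by the floor. When all genes were grouped by their higher value into 4 level ranges, 0 of the 93 members lay outside the central 95% of the genes in their own range. The authors' p-values and q-values given next come from 1 library per genotype, so they cannot measure the spread between pools of larvae. In the authors' deposited table, which tests these libraries against each other, 0 of 81 members tested had a q-value of 0.05 or less, beside 0.465% of all 14613 genes tested. The lowest q-value in the authors' deposited table among the members was 0.617, for hspb1, and the other 80 stood at 0.996. By the authors' deposited table, an unadjusted p under 0.05 was given to 2 members, hspb1 at 0.0115 and HSPA4L at 0.0381, beside 4.37% of all genes tested.

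**Figure D1:**
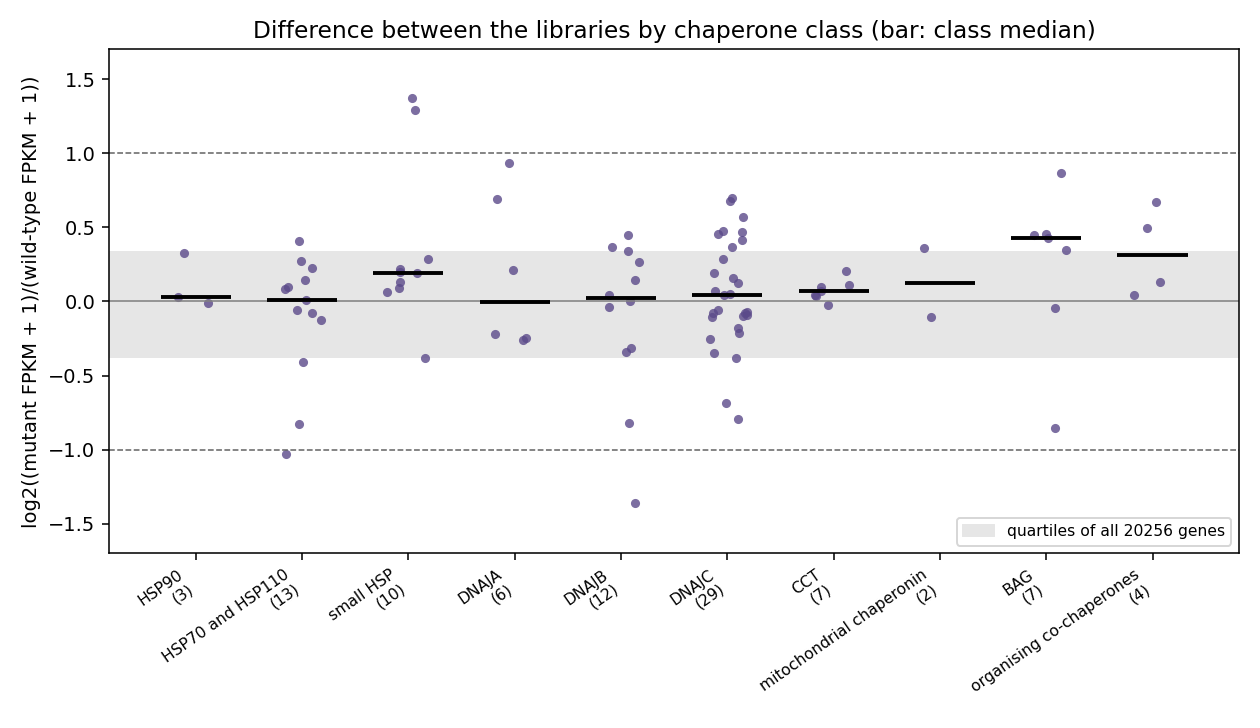
Difference between the libraries, log2((mutant FPKM + 1)/(wild-type FPKM + 1)), for each of 93 genes (points) by chaperone class, with the number of genes under each class, the class median (black bar) and the 2-fold lines (dashed). The grey band spans the quartiles of all 20256 genes, and the medians run from 0.00 in the DNAJA class to 0.43 in the BAG class.

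Markers of several tissues also differed between these pools. In bulk samples, fewer cells of a type and less RNA per cell cannot be told apart. Lens markers were lower in 9 of 9, with a median of -0.77, where 49% of all genes were above 0. At least 2-fold lower were 3 of them, where 7.12% of all genes were. Summed over the 9, levels were 4105 FPKM in wild-type larvae against 2458 FPKM in mutants. Fast muscle markers had a median difference of 0.13, and 0 of 16 were at least 2-fold apart, where 13.2% of all genes were. Liver markers had a median of 0.56 but were uneven. The 3 of 9 higher by 2-fold or more were fga, fgb and fgg, at 1.48, 1.32 and 1.57. Among all genes compared, 6.08% were higher by as much. Of the other liver markers, fabp10a, tfa and ambp lay between 0.43 and 0.56, while serpina1, apoa1a and ttr were at 0.04, -0.03 and -0.34. Leukocyte markers had a median of 0.44. Of 6 compared, 2 were higher by 2-fold or more, where 6.08% of all genes were. Lower by as much was 1, lyz, where 7.12% of all genes were. The most abundant of the 6, lyz was at 60.9 FPKM in wild-type larvae against 27.4 FPKM in mutants. Summed over the 6, levels were 81.5 FPKM in wild-type larvae against 62.1 FPKM in mutants. MPEG1 (3 of 3) and 1 entry of lcp1 were listed at 0 in both libraries, and ptprc was under 1 FPKM in both. Markers of all these tissues were detected in both libraries.

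The HSP90 genes of the cytosol were led by hsp90ab1 (ENSDARG00000029150, chromosome 20, 51532469 to 51546551), the constitutive form. It stood at 1012 FPKM in wild-type larvae against 1033 FPKM in mutants, a difference of 0.03. The muscle form hsp90aa1.1 (chromosome 20, 54337468 to 54367194) was at 21.5 and 27.2 FPKM, a difference of 0.33. Its neighbour hsp90aa1.2 (chromosome 20, 54322501 to 54336777), a heat-inducible copy, was at 15.2 and 15.1 FPKM. The constitutive form was thus 47.1 times as abundant as hsp90aa1.1 in the wild type and 37.9 times in the mutant, on the FPKM scale. No HSP90 gene was near 2-fold apart, and the division of reads among the tandem hsp90aa1 copies is uncertain.

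HSP70 was also dominated by its constitutive form. The heat shock cognate hspa8 (ENSDARG00000068992, chromosome 10, 30757254 to 30761585, a locus shared with 3 entries of the small nucleolar RNA SNORD14) was at 2196 FPKM in wild-type larvae against 2422 FPKM in mutants, a difference of 0.14. It ranked 60 among all genes in wild-type larvae and 42 in mutants. On its own it held 39.5% of the members' summed FPKM in wild-type larvae and 40.3% in mutants. Together hspa8 and hsp90ab1 held 57.8% of the members' summed FPKM in wild-type larvae and 57.5% in mutants. The members' sum was 5554 FPKM in wild-type larvae against 6011 FPKM in mutants, 0.669% and 0.729% of the summed FPKM of the whole table, and without hspa8 and hsp90ab1 it was 2347 and 2555 FPKM. The class of 13 had a median of 0.01, with 7 members above 0, beside 49% of all genes.

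Among the less abundant HSP70 genes, hspa9, the mitochondrial form, was at 111 FPKM in wild-type larvae against 117 FPKM in mutants. The ribosome-associated hspa14 was at 18.1 and 19.5 FPKM. The atypical genes hspa13 and hspa12a were at 7.90 and 2.85 FPKM in wild-type larvae, against 9.43 and 2.87 FPKM in mutants. The value of hspa13 rests on a locus shared with samsn1a, among others, and HSPA8 (1 of 2), on chromosome 15, was near the floor at 1.48 and 1.27 FPKM. None of these was more than 0.23 from 0 on the log2 scale. The atypical hspa12b, known from endothelial cells, differed more, at 4.76 FPKM in wild-type larvae against 2.25 FPKM in mutants, a difference of -0.83. The table gives it the same locus as the much more abundant cct7, so its value is uncertain.

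The HSP110 genes, exchange factors of HSP70, differed in direction. The library values of hspa4b were 32.7 FPKM in wild-type larvae against 43.6 FPKM in mutants, and those of hspa4a 23.8 and 29.0 FPKM, at a locus shared with zcchc10. HSPA4L (ENSDARG00000053544, chromosome 17, 43475152 to 43511104) went the other way, from 10.5 FPKM in the wild type to 4.64 FPKM in the mutant, 2.27-fold lower. Another HSP110 gene, hsph1, whose symbol the selection did not take, was at 2.28 and 2.07 FPKM. Thus both hspa4 copies were higher in the mutant library while HSPA4L was lower, and hsph1 was level. The genes HSPA4L and hspa4b each had a locus of their own.

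**Figure D2:**
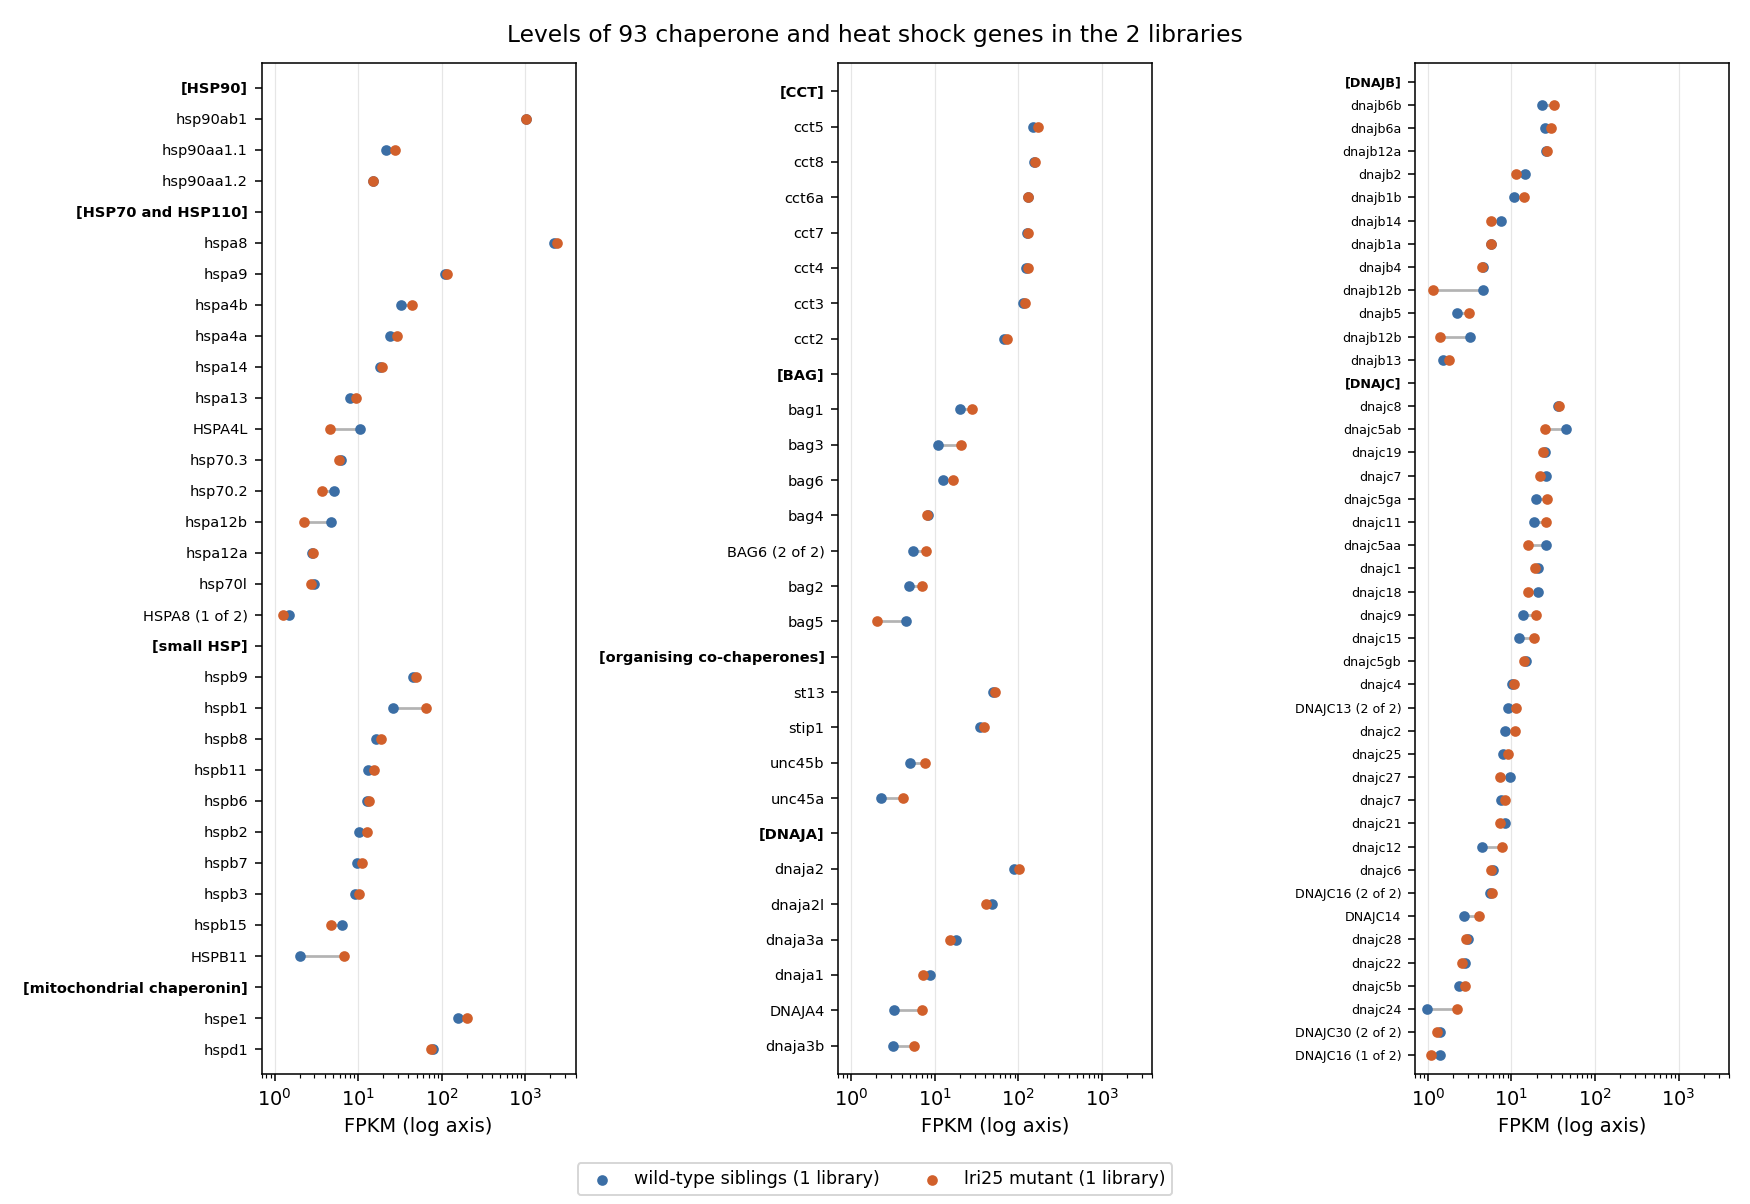
FPKM (log axis) of each of 93 chaperone and heat shock genes in the wild-type library (blue) and the lri25 mutant library (orange), grouped by class and ordered by mean level; each point is 1 library and there is no error bar. Most pairs of points touch, and the longest lines belong to dnajb12b, HSPB11, hspb1, HSPA4L, dnajc24 and the bag5, DNAJA4 and hspa12b pairs.

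Small heat shock proteins had a median of 0.20, with 9 of 10 above 0, beside 49% of all genes. Without HSPB11, described below, the median was 0.19, with 8 of 9 above 0. The class was taken by hspb symbols and leaves out the alpha crystallins, also small heat shock proteins. Of those, the lens gene cryaa was at 35.2 and 15.3 FPKM, and cryabb at 0.917 and 1.93 FPKM. The member with the lowest p in the authors' deposited table was in this class. The gene hspb1 (ENSDARG00000041065, chromosome 5, 3584621 to 3601420), the fish HSP27, which binds actin and unfolded proteins, stood at 26.2 FPKM in wild-type larvae against 65.7 FPKM in mutants. That is 2.50-fold higher, a difference of 1.29, at a locus it does not share. Of the members, hspb1 alone was still at least 2-fold apart with a pseudocount of 5. The most abundant small heat shock gene of the wild type, hspb9, was at 45.9 and 49.0 FPKM, so hspb1 ranked below it in wild-type larvae and above it in mutants. The gene printed hspb11 (ENSDARG00000002204, on chromosome 21, today hspb9l) was at 13.2 and 15.5 FPKM. The single member of the class below 0 was hspb15, at 6.46 and 4.72 FPKM.

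Of the small heat shock genes, 5 known from skeletal and heart muscle differed little. The set was picked by hand and leaves out hspb1, at 1.29, and the alpha crystallins. Values of the 5 ran from 9.18 FPKM for hspb3 to 16.5 FPKM for hspb8 in the wild type. In the mutant they ran from 10.2 to 19.0 FPKM for the same genes. The 5 genes hspb2, hspb3, hspb6, hspb7 and hspb8 had differences between 0.06 and 0.29. All 5 were above 0, beside 49% of all genes, with hspb3 and hspb6 at shared loci. Slow and cardiac muscle markers were above 0 in 7 of 8 as well, beside 49% of all genes, with a median of 0.33. Their summed levels were 400 FPKM in wild-type larvae against 587 FPKM in mutants, and tnni1a was listed at 0 in both. Of these, smyhc3 reached the floor of 1 FPKM only in mutants. Their part in the small heat shock values was not tested.

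HSPB11 (ENSDARG00000067777, chromosome 5, 45425585 to 45426924) is a different gene from the one printed hspb11. The human gene of this name encodes an intraflagellar transport protein of cilia, IFT25, rather than a stress-induced chaperone. It stood at 1.997 FPKM in wild-type larvae against 6.75 FPKM in mutants, 3.38-fold higher. Of 14 entries for motile cilia markers, 5 reached 1 FPKM in both libraries, and these had differences from 0.24 to 2.03, with summed levels of 6.94 FPKM in wild-type larvae against 21.9 FPKM in mutants. The ciliary master factor foxj1a, 1 of them, was at 1.82 and 10.5 FPKM. Another 4 (dnaaf1, ccdc103, ccdc151 and rsph9) reached the floor of 1 FPKM only in mutants, so that their direction was set by the floor. The last 5 were under the floor in both libraries, with 1 entry of dnah9 listed at 0 in both and 1 of DNAH9 at 0.559 and 0.440 FPKM. Their part in the HSPB11 value was not tested. The J protein of the ciliary radial spoke, dnajb13, was at 1.53 and 1.80 FPKM, a difference of 0.15, and its locus is shared with the abundant ucp2.

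The inducible HSP70 genes of a heat shock response were at low levels in both libraries. The zebrafish heat shock gene hsp70l (ENSDARG00000055723, chromosome 8, 5006699 to 5009452) was at 2.95 FPKM in wild-type larvae against 2.74 FPKM in mutants. The cluster copies hsp70.2 and hsp70.3, which lie in 1 locus of chromosome 3 (26878041 to 26953764) together with the abundant muscle gene atp2a1, were at 5.18 and 6.20 FPKM in wild-type larvae, against 3.65 and 5.90 FPKM in mutants. Another entry of that locus, printed mcm5 but carrying the identifier that the reference table gives to hsp70.1, was at 1.73 and 1.26 FPKM. All 4 of these entries were lower in the mutant library, where 49% of all genes were above 0. They were lower by 0.06 to 0.41 on the log2 scale. All but hsp70l share 1 locus, so they are not 4 separate observations. The hsp70 copies are nearly identical, so the way reads were shared out among them is uncertain. The gene that the reference table names hspa1b (ENSDARG00000056210, chromosome 8, 25821041 to 25823733, printed si:ch211-199o1.2 and so not among the members) was at 2.14 FPKM in wild-type larvae against 4.22 FPKM in mutants, 1.97-fold higher.

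The list of inducible genes held 18 names, including hspb1, bag3, both dnajb1 copies and the mitochondrial chaperonin. The name hspb11 matched both the gene printed hspb11 and HSPB11, which the reference table names hspb11. Without HSPB11, the list's 18 entries had a median of 0.16. Of them 12 were above 0, beside 49% of all genes. Only hspb1 was higher by 2-fold or more, where 6.08% of all genes were. Lower by as much were 0, where 7.12% of all genes were. The difference of hspb1 was the highest of these, followed by bag3 and hspa1b. The heat shock factor hsf1, which switches the response on, was at 11.98 FPKM in wild-type larvae against 10.9 FPKM in mutants, and hsf2 was at 24.8 and 19.8 FPKM. The lens factor hsf4 was at 2.43 and 3.92 FPKM, at a shared locus, and hsf5 was under 1 FPKM in the wild type and listed at 0 in the mutant.

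**Figure D3:**
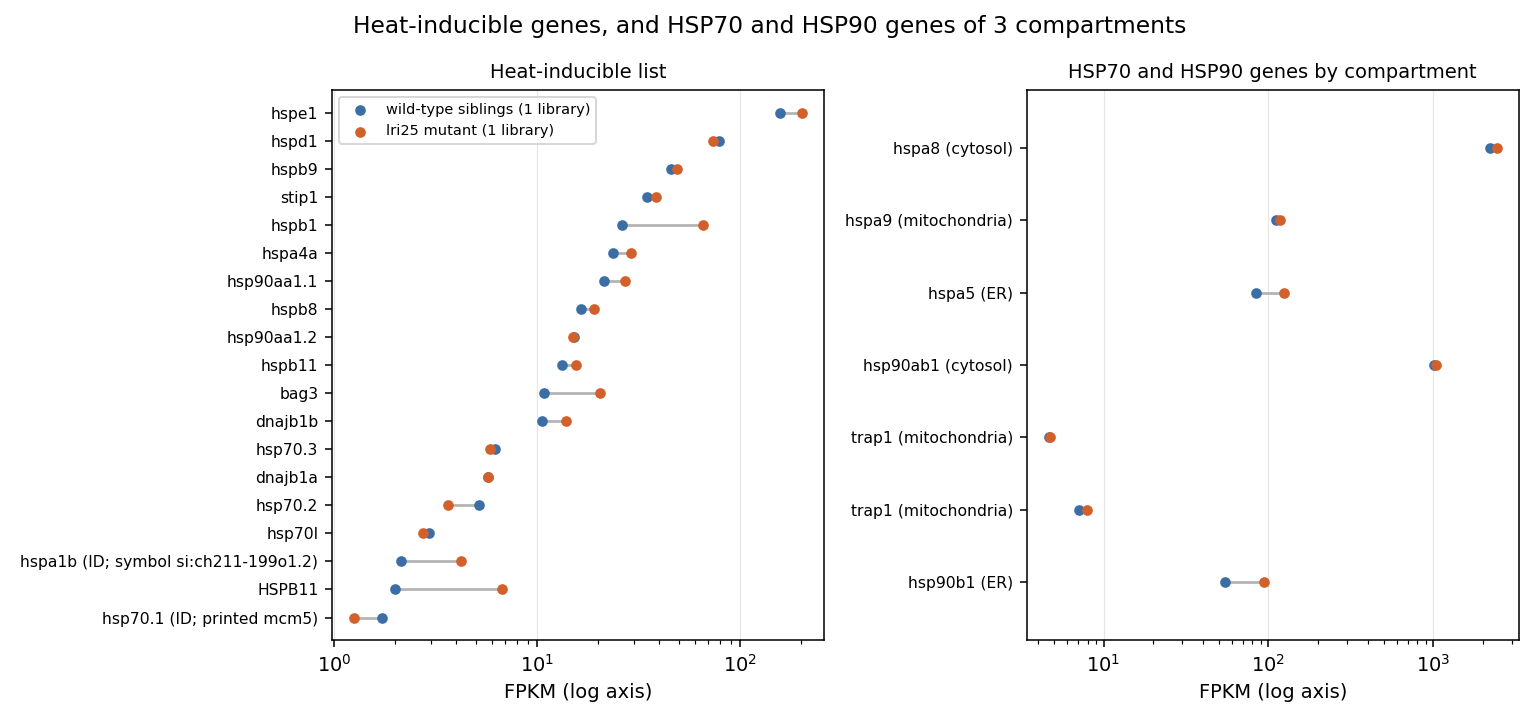
FPKM (log axis) in the wild-type library (blue) and the lri25 mutant library (orange) for the inducible heat shock list (left, with hsp70.1 and hspa1b found by gene identifier) and for HSP70 and HSP90 genes of cytosol, mitochondria and ER (right); each point is 1 library. On the left hspb1 goes from 26.2 to 65.7 FPKM while hsp70l stays near 3 FPKM, and on the right the ER genes hspa5 and hsp90b1 are farther apart than the others.

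DNAJ proteins were the largest group, with 47 genes compared in 3 types, A, B and C, told apart by domain layout. Type A had a median of 0.00 over 6 genes. The cytosolic partner dnaja2 was at 87.9 FPKM in wild-type larvae against 102 FPKM in mutants, and its copy dnaja2l, at a shared locus, at 48.9 and 41.0 FPKM. Also cytosolic, dnaja1 was at 8.85 and 7.22 FPKM. The copies of the mitochondrial dnaja3 differed in direction, dnaja3a at 17.7 and 15.1 FPKM and dnaja3b, at a shared locus, at 3.15 and 5.71 FPKM. DNAJA4 was higher in the mutant library, at 3.22 and 7.07 FPKM. That is a plain ratio of 2.19, but 0.93 on the scale with a pseudocount.

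Type B had a median of 0.02 over 12 genes, 7 of them above 0, beside 49% of all genes. The aggregation suppressors dnajb6a and dnajb6b were at 24.9 and 23.4 FPKM in wild-type larvae, against 30.1 and 32.2 FPKM in mutants. The canonical HSP40 gene dnajb1b was at 10.6 and 14.0 FPKM, and its copy dnajb1a at 5.73 and 5.75 FPKM. The loci of dnajb6a and dnajb1b are shared. The neuronal dnajb2 was at 14.5 and 11.2 FPKM, and the related dnajb4 and dnajb5 were at 4.56 and 2.22 FPKM in wild-type larvae, against 4.41 and 3.06 FPKM in mutants. None of these was 1.5-fold apart, where 13.8% of all genes were that much higher and 16% that much lower. The ER membrane J proteins stood apart by copy: dnajb12a was level at 25.6 and 26.4 FPKM, dnajb14 stood at 7.40 and 5.76 FPKM, and both entries named dnajb12b were lower. The entry ENSDARG00000087473 (chromosome 12, 49639998 to 49668033) was at 4.57 FPKM in wild-type larvae against 1.17 FPKM in mutants, 3.92-fold lower. The entry ENSDARG00000008312, 33831 bases before it and sharing a locus with ppa1a, was at 3.21 and 1.39 FPKM, 2.32-fold lower. These values are low, and the 2 entries may be parts of 1 gene.

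Type C, whose members mostly serve a single process each, had a median of 0.05 over 29 genes. Of these, 15 were above 0, beside 49% of all genes. On the scale with a pseudocount 0 were at least 2-fold apart, where 13.2% of all genes were. As a plain ratio dnajc24, near the floor, was 2.26-fold higher in mutants. The cysteine string proteins, J proteins of synaptic vesicles, differed by copy. The values of dnajc5ab were 44.6 FPKM in wild-type larvae against 25.3 FPKM in mutants, 1.77-fold lower at a shared locus, and those of dnajc5aa 26.2 and 15.9 FPKM, 1.65-fold lower. The related dnajc5ga and dnajc5gb were at 19.9 and 14.7 FPKM in wild-type larvae, against 26.9 and 14.1 FPKM in mutants, the former at a shared locus, and dnajc5b was at 2.38 and 2.77 FPKM. Both dnajc5a copies were therefore more than 1.5-fold lower, and none of the other 3 genes was. On the scale with a pseudocount, 16% of all genes were at least 1.5-fold lower. Synaptic neuron markers were below 0 in 10 of 10, where 49% of all genes were above 0. At least 2-fold lower were 2 of them, where 7.12% of all genes were. Summed over the 10, levels were 772 FPKM in wild-type larvae against 514 FPKM in mutants, and 1 entry named stxbp1b was listed at 0 in both. The part of these markers in the dnajc5a values was not tested. Auxilin (dnajc6), which uncoats clathrin vesicles with HSP70, was level at 6.06 and 5.69 FPKM.

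Other type C genes on the higher side belonged to different processes. The mitochondrial genes dnajc15 and dnajc11 were at 12.2 and 18.5 FPKM in wild-type larvae, against 18.6 and 26.2 FPKM in mutants, while dnajc19, of the mitochondrial import motor, was at 25.4 and 23.6 FPKM. The aromatic amino acid hydroxylase partner dnajc12 was at 4.43 and 7.67 FPKM. The histone-binding dnajc9 was at 13.9 and 19.4 FPKM. The diphthamide synthesis gene dnajc24 was at 0.982 and 2.22 FPKM, and was the single member to reach the floor of 1 FPKM in the mutant library only. Its direction was therefore set by the floor. On the lower side, dnajc18 was at 21.0 and 15.8 FPKM and the small GTPase gene dnajc27, at a shared locus, at 9.69 and 7.39 FPKM. The splicing-associated dnajc8 was at 36.0 and 37.2 FPKM, but its locus in the table holds 18 other genes. The ribosome-associated dnajc2, partner of hspa14, was at 8.27 and 10.97 FPKM at a locus shared with pmpcb, and the ribosome assembly gene dnajc21 at 8.27 and 7.21 FPKM. The TPR co-chaperone dnajc7 has 2 entries on chromosome 3, 1 at 26.1 and 21.8 FPKM and the other at 7.51 and 8.27 FPKM. The 10 type C genes not given above (DNAJC14, DNAJC13 (2 of 2), both entries of DNAJC16, dnajc1, dnajc4, dnajc22, dnajc25, dnajc28 and DNAJC30 (2 of 2)) lay between -0.21 and 0.47 on the log2 scale.

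The subunits of the cytosolic chaperonin, a ring that holds each subunit in equal number, had similar differences. The 7 members cct2, cct3, cct4, cct5, cct6a, cct7 and cct8 had differences between -0.02 and 0.20, with a median of 0.07. The highest was cct8 at 152 FPKM in the wild type, against 156 FPKM in the mutant, and cct5 was at 149 and 172 FPKM. The lowest, cct2, was at 67.6 and 73.0 FPKM, and the ring's alpha subunit, tcp1, outside the selection by its symbol, at 111 and 131 FPKM. The highest of the 8 subunit levels was 2.24 times the lowest in wild-type larvae and 2.36 times in mutants, and 1.36 and 1.42 times when cct2 was left out. A further entry, printed CABZ01073085.1, which the reference table names cct2, was at 195 and 243 FPKM, above every subunit here, so the place of cct2 in this order is uncertain. The loci of cct6a and cct7 are shared.

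The mitochondrial chaperonin genes lie next to each other on chromosome 9, with 233 bases between their loci. The HSP60 gene hspd1 (ENSDARG00000056160, 33319913 to 33334091) was at 79.3 FPKM in wild-type larvae against 73.6 FPKM in mutants. Its cofactor, the HSP10 gene hspe1 (ENSDARG00000056167, 33334325 to 33338315), was at 158 and 203 FPKM. The level of hspe1 was 1.99 times that of hspd1 in the wild type and 2.75 times in the mutant, so the neighbours differed in direction.

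BAG proteins had the highest class median, 0.43, with 5 of 7 above 0, beside 49% of all genes. The gene bag3 (ENSDARG00000039486, chromosome 13, 25710498 to 25722551), which with hspb8 and HSP70 sends damaged filament proteins to autophagy, was at 10.8 FPKM in wild-type larvae against 20.5 FPKM in mutants, 1.90-fold higher. Its partner hspb8 was at 16.5 and 19.0 FPKM, a difference of 0.19. The exchange factor bag1 was at 20.2 and 28.1 FPKM and bag2, an inhibitor of the ubiquitin ligase stub1, at 4.94 and 6.99 FPKM. The membrane protein quality control gene bag6 and its copy BAG6 (2 of 2) were at 12.6 and 5.53 FPKM in wild-type larvae, against 16.3 and 7.92 FPKM in mutants. Opposite to these, bag5 was at 4.47 and 2.02 FPKM, 2.21-fold lower as a plain ratio and -0.86 with the pseudocount, and bag4 was level at 8.31 and 8.04 FPKM. No BAG gene shares its locus, and 0 of 7 were at least 2-fold apart with the pseudocount, where 13.2% of all genes were.

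The co-chaperones that link HSP70, HSP90 and myosin were all above 0, beside 49% of all genes. Their median over 4 genes was 0.31, and 0.13 with a floor of 5 FPKM or without shared loci. The linker stip1 (Hop) was at 34.98 FPKM in wild-type larvae against 38.5 FPKM in mutants, and st13 (Hip), which stabilises HSP70 in its client-bound state, at 50.2 and 51.8 FPKM. The muscle myosin chaperone unc45b was at 5.09 and 7.56 FPKM and its general copy unc45a, at a shared locus, at 2.25 and 4.18 FPKM. Their muscle partner smyd1b was at 13.3 and 17.7 FPKM and smyd1a at 146 and 118 FPKM, both at shared loci. Beside hsp90aa1.1 at 0.33, the myosin folding genes unc45b and smyd1b thus lay at 0.49 and 0.39, and smyd1a at -0.31.

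**Figure D4:**
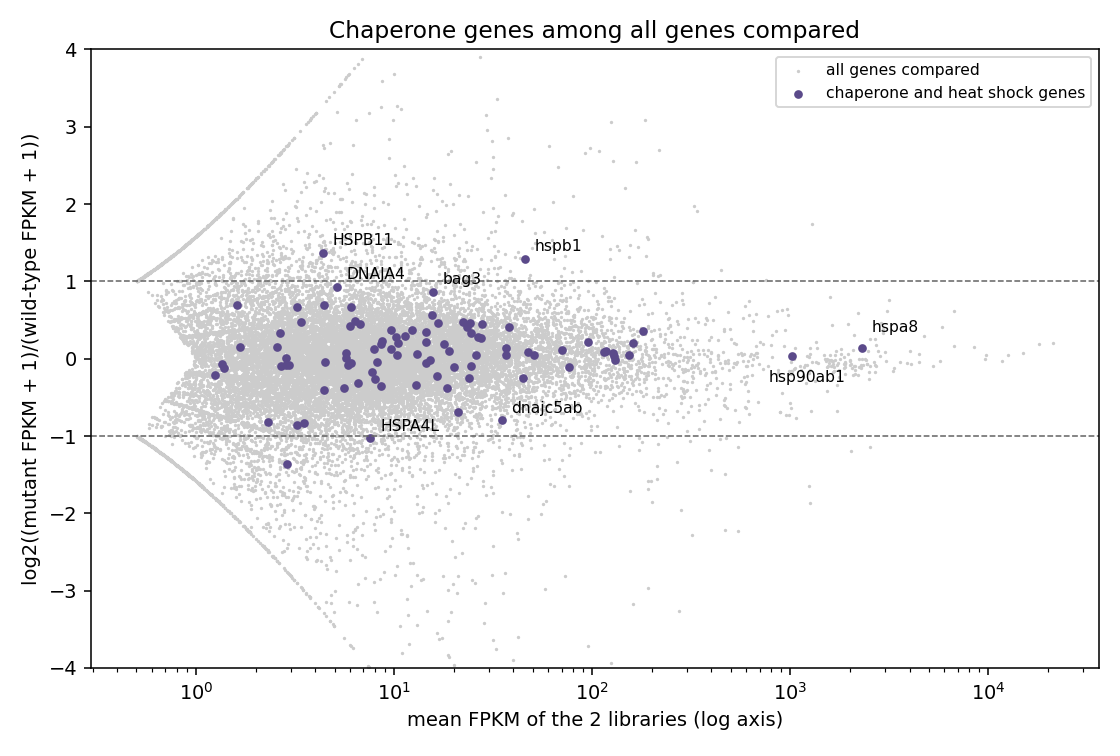
Difference between the libraries (vertical axis, log2 with a pseudocount of 1) against mean FPKM (log axis) for all 20256 genes compared (grey) and the 93 chaperone and heat shock genes (purple), with the 2-fold lines dashed; 47 grey genes lie beyond the vertical axis. The purple points stay near 0, with 2 above the upper line and 2 below the lower one.

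Other genes of the chaperone system, listed by name, were also mostly near 0. Of 45 names, 40 were matched to 44 entries, of which 41 entered the comparison. Their median was 0.10, and 0.03 without genes at a shared locus, beside -0.01 for all genes. With the pseudocount, 1 of the 41 was at least 2-fold higher, beside 6.08% of all genes. This was hspbap1, at 0.287 FPKM in wild-type larvae against 1.75 FPKM in mutants. This gene reached the floor of 1 FPKM only in the library where it was high, so its direction was set by the floor. At least 2-fold lower was 1, beside 7.12% of all genes. This was cryaa, the lens alpha crystallin, itself a small heat shock protein, at 35.2 and 15.3 FPKM. Lens markers were lower with it, as given above, and their part in the value was not tested. The HSP90 cochaperone ptges3a (p23), whose locus is shared, was at 108 and 87.2 FPKM, the immunophilin fkbp5 at 244 and 289 FPKM, and the ubiquitin ligase stub1 at 23.2 and 25.4 FPKM. The collagen chaperones serpinh1a and serpinh1b, heat-inducible proteins of the ER, were at 9.82 and 13.4 FPKM in wild-type larvae, against 18.1 and 20.8 FPKM in mutants. The serpinh1a locus is shared. Prefoldin, which hands clients to the CCT ring, had pfdn2 at 34.5 and 52.4 FPKM and pfdn5 at 101 and 89.8 FPKM. Its subunits pfdn4, pfdn6 and vbp1 were at 0.30, 0.29 and 0.25 on the log2 scale, and pfdn1 at -0.001. The loci of pfdn1 and pfdn4 are shared.

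The ER chaperones that were set aside lay higher. Of 7 compared, 6 were above 0, beside 49% of all genes, with a median of 0.41 beside 0.08 for the members. At least 2-fold higher was 1, dnajb9b at a shared locus, where 6.08% of all genes were. Below 0 was dnajb9a, at 5.02 FPKM in wild-type larvae against 3.46 FPKM in mutants, a difference of -0.43. The ER HSP70 hspa5 was at 83.6 FPKM in wild-type larvae against 125 FPKM in mutants, 1.49-fold higher, and the ER HSP90 hsp90b1 at 54.2 and 94.1 FPKM, 1.74-fold higher. Their cytosolic relatives hspa8 and hsp90ab1 differed by 0.14 and 0.03 on the log2 scale, and mitochondrial hspa9 by 0.08. The mitochondrial HSP90 trap1 has 2 entries, 1 at 4.66 and 4.70 FPKM and the other, at a shared locus, at 7.05 and 7.93 FPKM. The difference between compartments was not tested, since each genotype has 1 library.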

How the data were processed

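The deposited table holds, for each gene, an FPKM value for the wild-type library and 1 for the mutant library, beside a p-value and a q-value from the authors' comparison. The unit is not named in the file headers; FPKM was taken from the table's layout and from the lowest value above 0, which fell with locus length. Per the submitters' processing notes, CASAVA, Bowtie and the Zv9 genome build were used; versions and settings: not given in the sources used here. Columns were matched to the labels by their codes for wild type and mutant. The second identifier column was used. Positions are those of the table, in Zv9, with starts moved by 1 base, as 4 of 4 mitochondrial genes in the reference table required. Genes with the same locus are called shared; their reads may have been divided. Strand, exons and total fragments are also not given, so depth is unknown and no counting interval was computed.

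Differences were taken on the log2 scale after adding a pseudocount of 1 FPKM, which understates low genes, over genes that reached 1 FPKM in either library; folds in the text are plain ratios unless a scale is named. A gene was called at a difference of 1, and counts of genes at least 2-fold apart use this call. No test was run. The members, classes and lists were chosen with earlier results of these data known. Named by rule were called members, the 3 most abundant of each class and the inducible list; others are named to account for the members, after their values were seen. Of 97 member identifiers, 82 were in the reference table and 64 carried the same symbol there. Alternatives were other pseudocounts, floors, centring, and leaving out shared loci or genes at 0. Python 3.11.15 with pandas 2.3.3 was used, and the differences were checked on values with known folds. One further marker list is not reported here.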

Additional observations from a re-analysis of the deposited data

How the results depend on the processing

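The number of chaperone genes at least 2-fold higher was 4 when 0.1 FPKM was added before taking logs, where 9.21% of all genes were, and 1 when 5 FPKM was added, where 1.46% were, against 2 as reported. The number at least 2-fold lower was 5 when 0.1 was added, 0 when 5 was added and 1 above a floor of 5 FPKM, against 2 as reported. The shares of all genes at least 2-fold lower at these settings were 11%, 1.78% and 5.65%. The members added with the low pseudocount were DNAJA4, dnajc24, bag5, hspa12b and the other dnajb12b entry. Of these, dnajc24 had its direction set by the floor. The member left with the high pseudocount was hspb1. The median of the BAG class was 0.27 with a pseudocount of 5, and that of the organising co-chaperones (stip1, st13, unc45a and unc45b) was 0.13 both with a floor of 5 FPKM and without shared loci, where fewer genes remained. The other class medians and the median of all members moved by less than 0.1 under every alternative run, a tolerance set because no replicate spread exists. Of the 39 members named by rule, 1 changed sign, hsp90aa1.2, from -0.01 to 0.0023 when centred on the median of all genes, and 7 moved by 0.1 or more with a pseudocount of 5. No paired analysis was possible because each genotype has 1 library, and no library could be left out. Depth is unknown, and the differences of HSPB11, dnajb12b, bag5 and dnajc24 each rest on a single pair of low values.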

Other observations

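Some entries that today's reference table names as chaperones lay outside the selection because the deposited table prints another symbol. Besides the cct2 entry given above (ENSDARG00000087206, chromosome 4, 62089653 to 62094013), whose mutant level was 1.25-fold higher, these were rows of the HSP70 family. The entries of hspa12a.1 and hspa12a.2, printed si:ch211-250m6.4 and si:ch211-250m6.2, were listed at 0 in both libraries.

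Neighbouring chaperone genes differed in direction in some pairs and not in others. The dnajb12b entries, 33831 bases apart, were at -1.36 and -0.82. The tandem hsp90aa1 genes, 690 bases apart, were at 0.33 and -0.01. The small heat shock gene hspb2 and the alpha B crystallin gene cryabb lie 295 bases apart on chromosome 5. They were at 10.1 and 0.917 FPKM in wild-type larvae, against 12.6 and 1.93 FPKM in mutants. The cryabb locus is shared, and cryabb reached the floor of 1 FPKM only in mutants. The other alpha B crystallin gene, cryaba, was listed at 0 in both libraries.

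Like-named copies were compared in 12 chosen pairs, and in 8 of them the differences lay within 0.5 of each other. The share of other gene pairs this close was not computed, so the count cannot be read as closeness of copies. The widest gaps were between dnajb12a and the dnajb12b entries, between dnaja3a and dnaja3b and between hspa12a and hspa12b. The gene dnajb12a was paired with each dnajb12b entry, and some like-named entries, such as those of dnajc7, were not paired. These values describe 1 library per genotype and were not tested.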
